A study of Rattus norvegicus with 16 samples.

Results

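The serpins are a family of structurally related proteins, most of which inhibit serine proteases, and their genes were followed here across liver and epididymal fat of diabetic rats. All 39 gene symbols that start with Serpin and carry a clade letter from a to i were taken from the 22517 symbols measured, and 25 of them reached 1 FPKM (fragments per kilobase of transcript, relative to all mapped fragments) or more in at least 4 of the 16 libraries. The other 14 fell below that level, and 24 of the 25 are described here. The samples were 4 LA livers, 4 PF livers, 4 LA fat depots and 4 PF fat depots, as biological replicates from 8 rats. LA rats ate Purina 5008 feed with added R-α-lipoic acid, a sulphur-containing cofactor of mitochondrial dehydrogenases, and PF rats were pair-fed the same feed without it. Feeding lasted 2 weeks, from 9 to 11 weeks of age. Both groups were male Zucker diabetic fatty rats of the ZDF/GmiCrl-fa/fa stock, bought at 7 weeks of age. All of them therefore carry 2 copies of the fa allele of the leptin receptor gene and are obese, and no lean or freely fed rats are among the samples used here.

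An inhibitory serpin presents an exposed loop as bait, and the protease that cuts it is trapped in a covalent complex that receptors on the liver then clear from blood. The family is sorted into clades by sequence. Clade A and the single-gene clades C and D are mostly plasma proteins made by hepatocytes, clade B serpins stay inside cells, clade E serpins restrain proteases outside the cell, and some members have lost inhibition and work as hormone carriers or chaperones. In adipose tissue a well-known member is Serpina12 (vaspin), an adipokine first described in visceral fat of obese rats.

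The relative depth of the libraries was read from the steps between low values. A single fragment was worth 0.722 to 0.894 in LA liver, 0.853 to 1 in PF liver, 0.739 to 0.866 in LA fat and 0.774 to 0.961 in PF fat, relative to PF liver replicate 1, so LA livers were on the whole the more deeply sequenced. Within groups, log2 values of 2 libraries correlated at 0.9857 to 0.9961 across genes. This range was not broken down by library, and single markers of PF fat replicate 4 stood apart, as given below. The tissue labels held against their markers. The summed level of 10 adipocyte markers was 63.2 to 74.1 FPKM in LA liver and 59.7 to 71.9 FPKM in PF liver, against 38368 to 45246 FPKM in LA fat and 37103 to 43692 FPKM in PF fat. Of 11 hepatocyte markers, Alb and Tf were listed at 0 in all 8 liver libraries, so a 0 in these files can be a failed estimate. The other 9 hepatocyte markers were above 1 FPKM in both liver groups.

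Serpin transcripts were a far larger part of the liver than of the fat transcriptome. The 24 genes together made up 2.38% to 2.48% of the summed FPKM in LA liver and 2.69% to 2.96% in PF liver, against 0.309% to 0.383% in LA fat and 0.312% to 0.338% in PF fat. The liver totals hold Alb and Tf at 0, so the liver percentages may be too high to an unknown extent. The 2 tissues also differed in which genes carried the serpin sum. Serpina1 alone gave 47.4% to 53.8% of the serpin sum in LA liver and 45.9% to 52.6% in PF liver. In fat, Serpina3n and Serpinh1 led, with 29.4% to 35.6% and 19.98% to 24.3% of the sum in LA fat and 17.5% to 25.6% and 20.8% to 29.7% in PF fat.

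Clade A summed to 10191 ± 600.8 FPKM in LA liver and 13455 ± 1402 FPKM in PF liver, and to 721 ± 188 FPKM in LA fat and 533 ± 72.2 FPKM in PF fat (SD, n = 4 each). Clade B ran the other way, with 19.5 ± 1.501 FPKM in LA liver and 18.1 ± 2.40 FPKM in PF liver, against 162 ± 6.40 FPKM in LA fat and 155 ± 15.5 FPKM in PF fat. Clades C, D and F had their higher sums in liver, and clade H in fat. Clade G, the single gene Serping1, was the most evenly spread, with means of 367 FPKM in LA liver, 397 FPKM in PF liver, 282 FPKM in LA fat and 267 FPKM in PF fat.

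**Figure D1:**
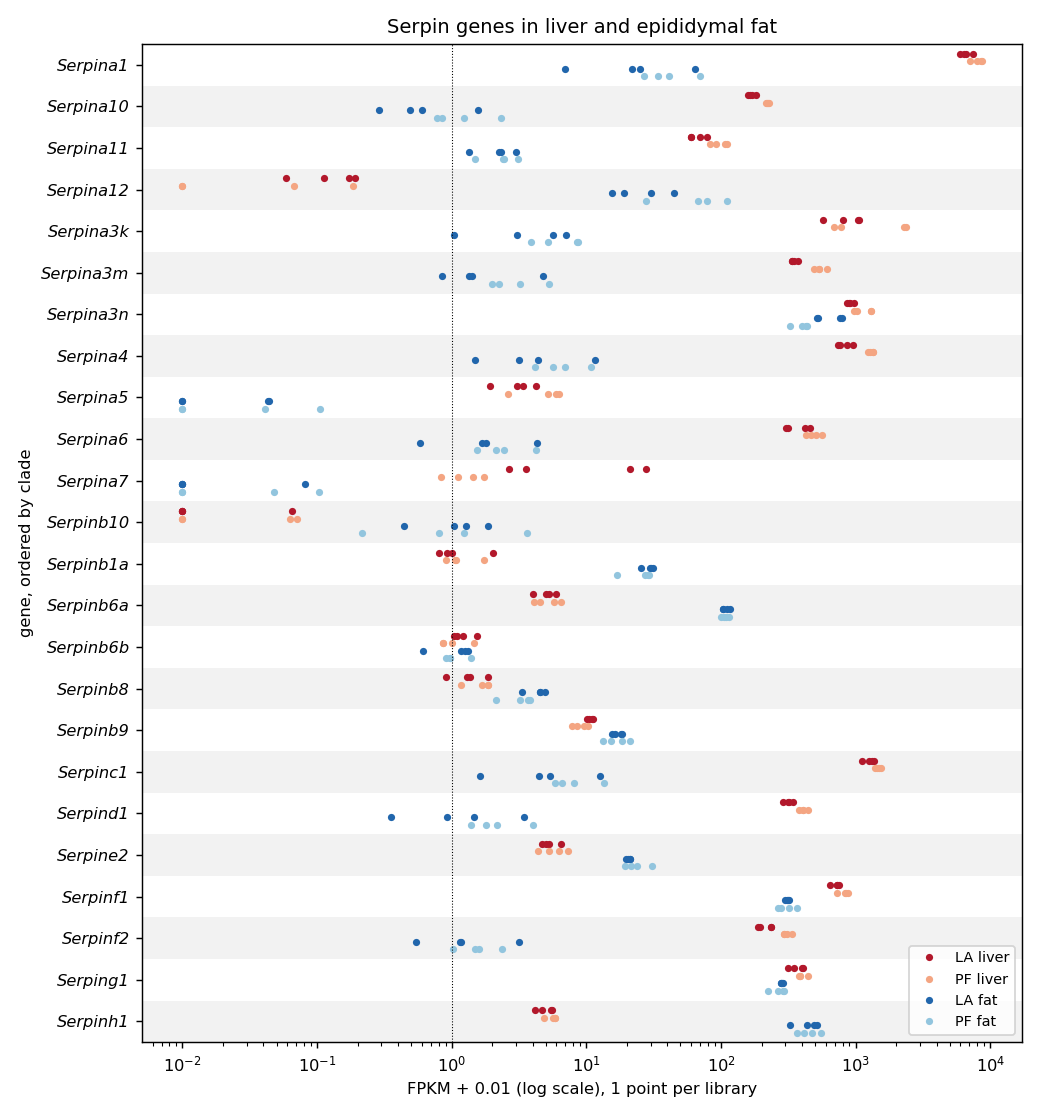
Level of each of the 24 serpin genes in every library, as FPKM + 0.01 on a log axis, with 1 point per library and colours for LA liver, PF liver, LA fat and PF fat; the dotted line marks 1 FPKM. Serpina1 lies furthest right in liver, Serpinb6a and Serpinh1 are higher in fat, and Serpina3n and Serping1 are high in both tissues.

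The comparison of liver with fat asked where each gene is used. In LA rats 13 of the 23 members tested were higher in liver than in fat and 6 were lower, at an adjusted p under 0.05 (limma, Benjamini-Hochberg) and a log2 fold change over 1 in size. In PF rats 13 of 21 were higher and 5 lower. Among all genes tested, 10.5% were higher in liver in LA rats and 11.1% in PF rats, and 36% and 36.3% were lower, with a median log2 fold change over all genes of -0.65 in LA rats and -0.66 in PF rats. With each library centred on its median, which moves the all-gene median to 0.02 in both feeds, 1985 genes were higher and 2292 lower in LA rats, in place of 1211 and 4161, and 2064 were higher and 2253 lower in PF rats, in place of 1273 and 4174. Among the members, Serpinb8 then lost its call in LA rats, Serpina3n was called higher in LA rats too, and Serping1 was called higher in both feeds. The median over the members tested was 1.99 in LA rats and 2.49 in PF rats. Of the members tested, Serpina5 in both feeds and Serpina7 in LA rats passed the level filter through liver alone. Serpina12 in both feeds passed it through fat alone. The other members reached 1 FPKM in libraries of both tissues, but in fewer than 4 fat libraries for Serpina3m, Serpina6, Serpinb6b, Serpind1 and Serpinf2 in LA rats and Serpina10 in both feeds, and in fewer than 4 livers for Serpinb8 in LA rats and Serpinb1a in both feeds. Members that pass through the tissue where they are high have to differ here, so the counts and medians over the members are a description.

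Serpina1, alpha-1-antitrypsin, guards tissue against neutrophil elastase and was the most abundant serpin in liver. It had 6414, 5992, 6600.4 and 7424 FPKM in LA livers and 8027, 8579, 8743 and 7114 FPKM in PF livers. In fat it had 24.99, 21.9, 63.8 and 6.90 FPKM under LA and 40.8, 26.9, 33.96 and 70.3 FPKM under PF. The tissues did not overlap, with log2 fold changes of liver over fat of 8.13 (SE 0.49, adjusted p = 7.15e-08) in LA rats and 7.61 (SE 0.24, adjusted p = 1.43e-10) in PF rats by limma. The same held for antithrombin, Serpinc1, the heparin-activated inhibitor of thrombin and factor Xa. Serpinc1 had 1312, 1119, 1261 and 1371 FPKM in LA livers and 1430.0, 1541, 1489 and 1402 FPKM in PF livers. In fat its level was 5.35, 4.47, 12.6 and 1.62 FPKM under LA and 8.07, 5.85, 6.62 and 13.4 FPKM under PF. Its log2 fold change of liver over fat was 7.73 in LA rats and 7.33 in PF rats.

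In clades A and D, 8 more members were called higher in liver in both feeds. Serpina6, the corticosteroid-binding globulin that carries glucocorticoid in blood and does not inhibit proteases, ranged over 304 to 461 FPKM in LA liver and 428 to 567 FPKM in PF liver, against 0.569 to 4.32 FPKM in LA fat and 1.54 to 4.25 FPKM in PF fat. Serpina5, protein C inhibitor, was low even in liver, at 1.91 to 4.25 FPKM under LA and 2.60 to 6.24 FPKM under PF, and its highest value in fat was 0.0953 FPKM. The other 6 were Serpina10, Serpina11, Serpina3k, Serpina3m, Serpina4 and Serpind1, and their liver values are given with the feed comparison. In clade F, Serpinf2, the inhibitor of plasmin, had 1.14, 1.16, 3.16 and 0.529 FPKM in LA fat and 1.60, 1.02, 1.48 and 2.36 FPKM in PF fat, and its log2 fold change of liver over fat was 6.51 in LA rats and 6.91 in PF rats. Serpind1 of clade D was also low in fat, with 1.46, 0.912, 3.46 and 0.345 FPKM in LA fat and 2.15, 1.38, 1.803 and 4.03 FPKM in PF fat, and a log2 fold change of liver over fat of 7.10 in LA rats and 7.00 in PF rats.

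Serpinf1, pigment epithelium-derived factor, a secreted serpin without inhibitory activity, was abundant in both tissues. It had 753, 645, 725 and 725 FPKM in LA livers and 834, 882, 730.5 and 851 FPKM in PF livers. Fat held 307, 313, 322 and 299 FPKM under LA and 267, 364, 318 and 279 FPKM under PF. Liver was above fat in both feeds with no overlap, at a log2 fold change of 1.19 in LA rats and 1.43 in PF rats. Serping1, the C1 inhibitor of complement and plasma kallikrein, had 406, 312, 349 and 403 FPKM in LA livers and 383, 443, 377 and 383 FPKM in PF livers. In fat Serping1 had 285, 277, 287 and 279 FPKM under LA and 223, 293, 264 and 287 FPKM under PF. Its groups did not overlap either, but the log2 fold changes of 0.37 in LA rats and 0.58 in PF rats stayed under the size asked for, and Serping1 was not called.

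The members called lower in liver than in fat in both feeds were Serpina12, Serpinb1a, Serpinb6a, Serpine2 and Serpinh1. Serpinh1, also known as HSP47, is the collagen chaperone of the endoplasmic reticulum and inhibits no protease. It had 4.14, 5.59, 4.66 and 5.45 FPKM in LA livers and 5.66, 5.84, 5.85 and 4.83 FPKM in PF livers. In fat it reached 515, 433, 495 and 326 FPKM under LA and 473, 552, 416 and 364 FPKM under PF. Every liver library was below every fat library, with a log2 fold change of liver over fat of -6.20 (adjusted p = 7.29e-11) in LA rats and -6.10 (adjusted p = 7.58e-12) in PF rats by limma. Among 20 genes of procollagen folding and collagen chains tested, 17 were lower in liver than in fat and 1 higher in each feed, with a median of -3.62 in LA rats and -3.55 in PF rats.

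The promoter of Serpinh1 is shown because it alone among the members with a sequence held a heat shock element, the trimer that heat shock factor 1 binds. RefSeq promoters (GRCr8) were found for 18 of the 24 members, and the 250 bases before the gene start were searched on both strands for the triplets GAA, TTC and GAA, each parted from the next by 2 bases (NN), or their reverse complement TTC, GAA and TTC. The motif was present in 222 of 33469 promoters, or 0.6633%. The stretch is chr1:163062977-163063226 on the minus strand, with the match in capitals.
Serpinh1 promoter: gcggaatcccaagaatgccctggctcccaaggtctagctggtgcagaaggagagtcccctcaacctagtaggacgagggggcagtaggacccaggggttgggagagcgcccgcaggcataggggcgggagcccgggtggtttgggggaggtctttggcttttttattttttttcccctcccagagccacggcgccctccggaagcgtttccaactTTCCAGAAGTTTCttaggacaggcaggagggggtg

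The clade B serpins act inside cells, where they guard against proteases of their own granules and lysosomes. Serpinb6a, an inhibitor of cathepsin G, had 4.03, 5.25, 5.05 and 5.91 FPKM in LA livers and 4.06, 5.78, 6.46 and 4.55 FPKM in PF livers. In fat Serpinb6a led the clade with 116, 104, 111 and 104 FPKM under LA and 99.2, 109, 105 and 115 FPKM under PF. Every liver library was far below every fat library, with a log2 fold change of liver over fat of -4.19 in LA rats and -4.14 in PF rats. Serpinb1a, which inhibits neutrophil elastase and cathepsin G, stayed at 0.799 to 2.004 FPKM in LA liver and 0.894 to 1.73 FPKM in PF liver. In fat it had 29.5, 25.3, 30.2 and 31.3 FPKM under LA and 16.9, 29.01, 27.5 and 28.9 FPKM under PF. Its log2 fold change of liver over fat was -3.81 in LA rats and -3.59 in PF rats. Serpinb9, the inhibitor of granzyme B, led the clade in liver with 10.4, 11.2, 11.1 and 10.03 FPKM under LA and 7.77, 8.56, 9.53 and 10.3 FPKM under PF. In fat Serpinb9 had 15.6, 16.4, 18.3 and 18.2 FPKM under LA and 13.2, 18.2, 21.2 and 15.2 FPKM under PF. Every liver library was below every fat library, yet the log2 fold changes of -0.63 and -0.83 were too small for a call, and the LA value turned to 0.04 when each library was centred on its median.

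Serpinb8, whose human counterpart inhibits furin, was lower in liver in LA rats (log2 fold change -1.19, SE 0.14, adjusted p = 1.73e-05). In PF rats its log2 fold change of -0.66 was under the size asked for, and with median centring it was 0.01. Serpinb6b, a close paralog of Serpinb6a, stayed between 0.599 and 1.54 FPKM in all 16 libraries and was not called. Serpinb10, a serpin of blood-forming cells, reached 1 FPKM in 5 libraries, all of them from fat, and was too low for the tissue tests. Markers of other cells were also lower in liver. Of the markers tested, 8 of 10 macrophage markers and 4 of 4 neutrophil markers were lower in LA rats, and 8 of 10 and 3 of 4 in PF rats. The macrophage marker Clec4f went the other way, at 43.6 to 93.4 FPKM in liver and at most 0.459 FPKM in fat. Adipocyte markers were lower for 10 of 10 in both feeds, and endothelial markers for 6 of 7. Fibroblast and stellate markers were lower for 7 of 8 in LA rats and 7 of 9 in PF rats. Mesothelial markers were lower for 6 of 7 and 5 of 7. Their part in the clade B levels was not tested. In bulk samples, fewer cells of a type and less RNA per cell cannot be told apart.

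In clade E, Serpine2, protease nexin 1, an inhibitor of thrombin and urokinase at the cell surface, had 4.67, 5.23, 5.005 and 6.49 FPKM in LA liver and 4.35, 7.25, 6.30 and 5.28 FPKM in PF liver, against 20.97, 20.9, 19.5 and 20.4 FPKM in LA fat and 23.8, 30.97, 21.3 and 19.5 FPKM in PF fat. Every liver library was below every fat library, with a log2 fold change of liver over fat of -1.76 in LA rats and -1.87 in PF rats.

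Serpina12 and Serpina3n were the 2 clade A genes that departed most from the liver pattern, Serpina12 by its direction and Serpina3n by its smaller fold. Serpina12 reached at most 0.180 FPKM in LA liver and 0.175 FPKM in PF liver. In fat it had 44.6, 19.01, 30.3 and 15.5 FPKM under LA and 67.3, 78.5, 27.9 and 111 FPKM under PF. Its log2 fold change of liver over fat was -4.54 in LA rats and -5.94 in PF rats. Serpina3n, a rodent relative of alpha-1-antichymotrypsin that inhibits granzyme B in mice, was among the most abundant serpins in both tissues. It had 969, 911, 886 and 869 FPKM in LA livers and 1029.9, 1305, 965 and 1301 FPKM in PF livers. In fat Serpina3n had 766, 524, 787 and 515 FPKM under LA and 434, 324, 429 and 397 FPKM under PF. The gap between liver and fat was 0.51 on the log2 scale in LA rats (adjusted p = 0.0128, limma). Every LA liver was above every LA fat library there, but the fold was under the size asked for. In PF rats the gap was 1.53, called at an adjusted p of 2e-06 by limma.

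Serpina3n and its relative Serpina3m lie in the same cluster on chromosome 6, where RefSeq orders the members as Serpina10, Serpina6, Serpina1, Serpina11, Serpina12, Serpina4, Serpina5, Serpina3m, Serpina3k (current symbol Serpina3c) and Serpina3n, leaving out genes below the level. Their promoters are printed because the coding genes are close paralogs while the levels in fat differ, with Serpina3m at 0.839 to 4.77 FPKM in LA fat and 1.99 to 5.31 FPKM in PF fat. Such paralogs can share reads, and how the authors split them is not given in the sources used here, so the values of Serpina3k, Serpina3m and Serpina3n are uncertain to that extent. Aligned over 244 columns, the promoters had 195 identical bases, 39 different ones and 10 gap columns, an identity of 79.92%. Capitals mark bases that are not identical in the alignment. The Serpina3m stretch is chr6:128836846-128837089 on the minus strand and the Serpina3n stretch chr6:129088158-129088391 on the plus strand of GRCr8.
Serpina3m promoter: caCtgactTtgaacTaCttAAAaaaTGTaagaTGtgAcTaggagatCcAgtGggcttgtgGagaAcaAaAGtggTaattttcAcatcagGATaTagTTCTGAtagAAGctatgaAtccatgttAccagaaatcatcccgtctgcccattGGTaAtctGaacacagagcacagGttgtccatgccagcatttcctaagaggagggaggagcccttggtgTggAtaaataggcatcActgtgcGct
Serpina3n promoter: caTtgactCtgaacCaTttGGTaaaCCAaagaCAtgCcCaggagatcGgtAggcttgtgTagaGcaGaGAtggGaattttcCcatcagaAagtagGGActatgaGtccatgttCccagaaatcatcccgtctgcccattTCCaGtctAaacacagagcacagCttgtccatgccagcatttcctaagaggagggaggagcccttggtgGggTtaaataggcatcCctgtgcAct
The motif TTCNNNGAA, its own reverse complement and the core that STAT factors bind, was found in the windows of Serpina3n and Serpina11 and in 2566 of 33469 promoters, or 7.667%. It was not in the window of Serpina3m.

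The low levels of liver serpins in fat moved from library to library. For 9 of the 12 members called higher in liver in both feeds (Serpina1, Serpina10, Serpina3k, Serpina3m, Serpina4, Serpina6, Serpinc1, Serpind1 and Serpinf2), a set formed after the values were seen from those with liver means of at least 100 FPKM in both feeds other than Serpinf1, the fat level was 0.104% to 1.49% of the liver mean of the same feed. The median over these genes was 0.464%, 0.353%, 1.10% and 0.152% in LA fat replicates 1 to 4, and 0.503%, 0.331%, 0.480% and 0.866% in PF fat replicates 1 to 4. The same percentages for 8 hepatocyte markers had medians of 0.405%, 0.315%, 0.960% and 0.109% in LA fat and 0.540%, 0.400%, 0.462% and 0.913% in PF fat. LA fat replicate 4 was lowest for 9 of the 9 serpins. PF fat replicate 4 was highest for 6 of them and LA fat replicate 3 for 3. Alb, the albumin gene, had 234, 185, 500.1 and 51.2 FPKM in LA fat and 355, 245, 290.3 and 581 FPKM in PF fat. The part of hepatocyte RNA in these fat values was not tested. Serpina11, just under that level with liver means of 67.2 FPKM in LA rats and 98.02 FPKM in PF rats, had 1.999% to 4.48% of its liver mean in LA fat and 1.52% to 3.16% in PF fat, and its lowest fat library was LA fat replicate 1. Serpinf1 lay far above the 9, with 42.0% to 45.2% of its liver mean in LA fat and 32.3% to 44.2% in PF fat.

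**Figure D2:**
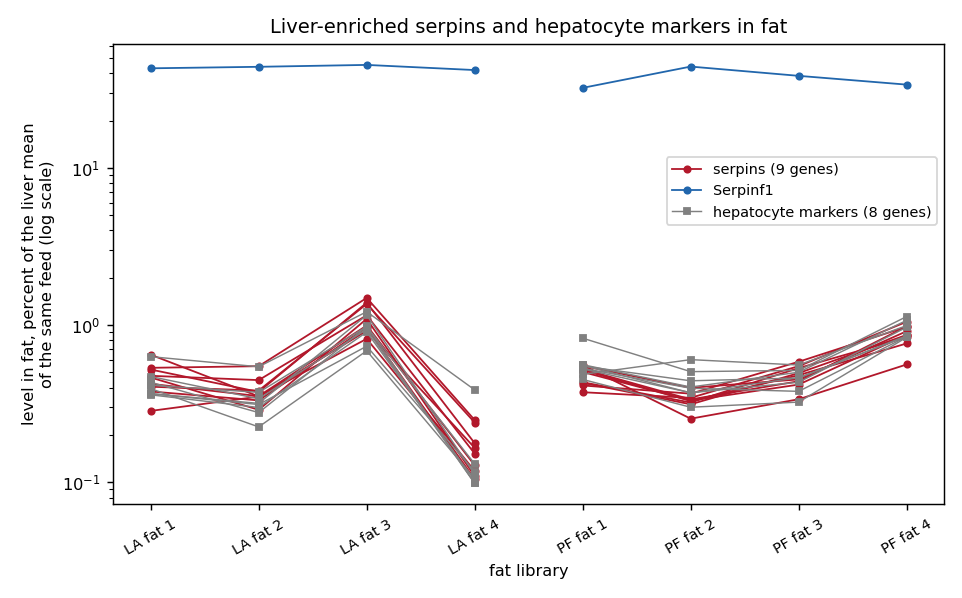
Level in each fat library as a percentage of the liver mean of the same feed, on a log axis, with a line per gene for 9 liver serpins (red), Serpinf1 (blue) and 8 hepatocyte markers (grey). The serpins and the hepatocyte markers lie in the same band, with serpin medians of 0.152% in LA fat replicate 4 and 1.10% in LA fat replicate 3, while Serpinf1 stays between 32.3% and 45.2%.

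The comparison of LA with PF livers asked whether lipoic acid feed was accompanied by other serpin levels. Of the 22 members tested in liver, 6 fell under LA and 0 rose at an adjusted p under 0.05 (limma). The background over 9710 genes tested was 2.21% lower and 2.27% higher. The 6 were Serpina4, Serpina3m, Serpinf2, Serpina11, Serpina10 and Serpind1, and their LA means were 64.0% to 76.9% of the PF means. By clade, 4 of 10 members of clade A fell, 0 of 5 of clade B, the single member of clade D, 1 of 2 of clade F, and 0 of the 4 single members tested of clades C, E, G and H. The median log2 fold change was -0.26 over the 22 members and -0.46 over clade A, beside -0.002 over all genes. At an unadjusted p under 0.05 there were 12 members lower and 2 higher, where 20.1% of all genes reached that level in either direction. Groups did not overlap and LA was lower for 7 members, where 6.39% of all genes did the same, and 1 member did not overlap with LA higher, where 5.89% did. When all 16 libraries entered a single model, 0 members fell and Serpina7 rose. That model takes the spread of each gene over both tissues together and covered 12079 genes in place of 9710. The cause of the lost calls was not tested.

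Serpina4, kallistatin, an inhibitor of tissue kallikrein, had 958, 735, 860.4 and 771 FPKM in LA livers and 1234, 1338, 1337 and 1288 FPKM in PF livers. The PF livers sat close together and all above the LA livers (log2 fold change -0.65, SE 0.10, adjusted p = 0.00562). Serpina3m, a relative of alpha-1-antichymotrypsin, had 374, 337, 336 and 351 FPKM in LA livers and 491, 617, 530.0 and 538 FPKM in PF livers. The groups were again apart, and the difference was of like size (log2 fold change -0.63, SE 0.09, adjusted p = 0.00338). Serpinf2, alpha-2-antiplasmin, which protects fibrin clots from plasmin, had 233, 189.6, 193 and 234 FPKM in LA livers and 310.3, 338, 295 and 292 FPKM in PF livers. All LA livers lay below all PF livers (log2 fold change -0.54, SE 0.09, adjusted p = 0.0113).

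Serpina10, the protein Z-dependent inhibitor of factor Xa, had 164, 159, 170.5 and 183 FPKM in LA livers and 217, 227, 218 and 225 FPKM in PF livers. The fall was smaller than that of Serpina4 but the libraries of each feed were tight (log2 fold change -0.39, SE 0.07, adjusted p = 0.0117). Serpind1, heparin cofactor II, a thrombin inhibitor, had 322, 287, 313 and 340.1 FPKM in LA livers and 380.1, 409, 446 and 405 FPKM in PF livers, also with no overlap (log2 fold change -0.38, SE 0.08, adjusted p = 0.0293). Serpina11, a liver serpin of little-known function, had 70.4, 59.6, 59.6 and 79.05 FPKM in LA livers and 91.7, 111, 106 and 83.02 FPKM in PF livers. Its groups did not overlap, with the highest LA liver just under the lowest PF liver (log2 fold change -0.54, SE 0.12, adjusted p = 0.0297). The calls of Serpina11 and Serpind1 were the least firm, since leaving out 1 library raised the adjusted p to as much as 0.0923 for Serpina11 and 0.0822 for Serpind1 by limma. Serpina11 was lost without LA liver replicate 2 or 3 or PF liver replicate 1, 2 or 3, and Serpind1 without LA liver replicate 1, 2 or 3 or PF liver replicate 2, 3 or 4. Both were also lost with the replicate number as a block, in the single model and with centring on hepatocyte markers. Serpina11 was lost without the level filter too.

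**Figure D3:**
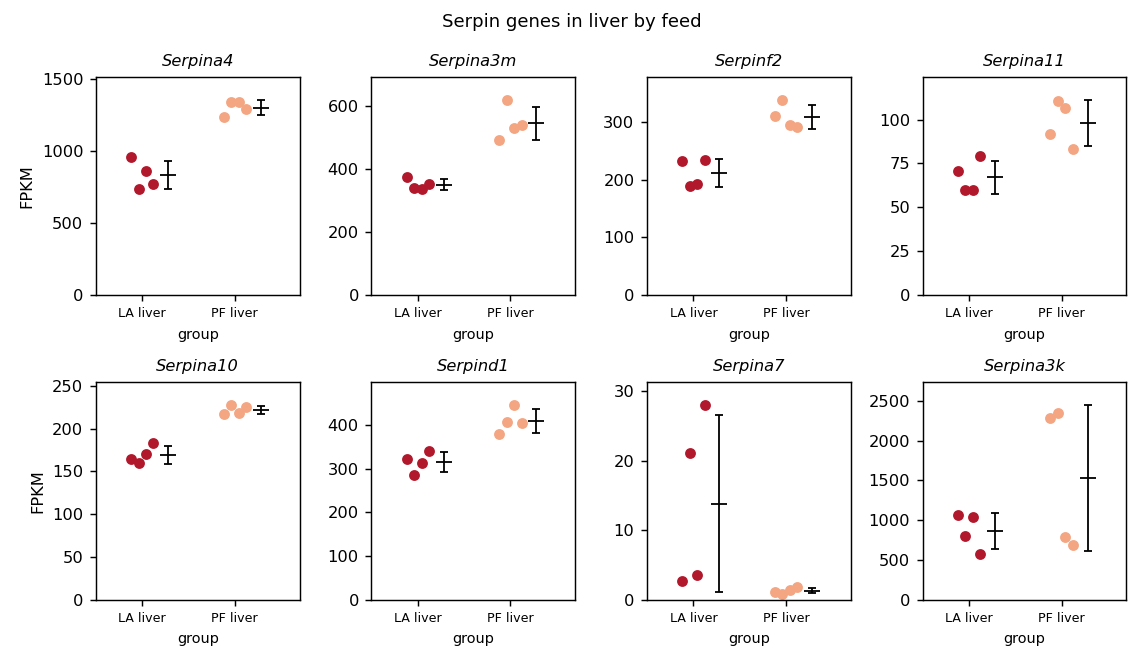
FPKM in each LA and PF liver for the 6 members that passed, Serpina7 and Serpina3k, with 1 point per library and the group mean ± SD beside the points; every axis starts at 0. The LA and PF points do not overlap in the 6 members that passed, and the PF points of Serpina3k form a high and a low pair.

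Serpina7, the thyroxine-binding globulin of blood, had a higher mean in LA livers. It had 2.66, 21.1, 3.54 and 27.9 FPKM in LA livers and 1.10, 0.827, 1.44 and 1.74 FPKM in PF livers, so that every LA liver was above every PF liver, and LA replicates 2 and 4 were far above LA replicates 1 and 3. Its difference did not pass the test (log2 fold change 2.17, SE 0.59, adjusted p = 0.0654), and the adjusted p ran from 0.0251 to 0.179 with 1 library left out. In fat its highest value was 0.0931 FPKM. Serpina3k was the most uneven of the abundant members. It had 1061, 800.1, 1034 and 571 FPKM in LA livers and 2291, 2353, 783 and 687 FPKM in PF livers, with PF replicates 1 and 2 far above PF replicates 3 and 4 and above every LA liver. The groups overlapped and the difference did not pass (log2 fold change -0.63, SE 0.40, adjusted p = 0.429).

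The other plasma serpins had lower means in LA livers without passing. Serpina1 had a log2 fold change of -0.30 (adjusted p = 0.203), with LA replicate 4 inside the range of the PF livers. Serpinc1 did not overlap between the feeds, yet its log2 fold change of -0.21 gave an adjusted p of 0.223 by limma. Serpina3n had -0.33 (adjusted p = 0.144), Serpina5 -0.52 (adjusted p = 0.247) and Serpina6 -0.41 (adjusted p = 0.149) by limma. Serpinf1 and Serping1 had smaller differences of -0.21 and -0.12. In the cell-bound clade B, the log2 fold changes ran from -0.17 for Serpinb8 to 0.22 for Serpinb9, and the last of these had an adjusted p of 0.19. Serpine2 and Serpinh1 had -0.09 and -0.14.

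The 6 falls all lay among the genes higher in liver than in fat. Of the 12 members called higher in liver than in fat in both feeds, 12 had a lower mean in LA than in PF livers and 6 of these passed, with a median log2 fold change of -0.46 and a range of -0.65 to -0.21. Of the other 10 members tested, 7 had a lower LA mean and 0 passed, with a median of -0.06. The tissue comparisons use the same liver libraries, so this is a description. The share that fell among all genes higher in liver than in fat was not taken. The pattern therefore cannot be set apart from liver genes in general. The split also followed the level in liver. All of the 12 but Serpina5 had liver means of at least 67.2 FPKM in both feeds. The other 10 had at most 13.8 FPKM, except Serpina3n (log2 fold change -0.33) and Serping1 (-0.12). Tissue preference and level therefore cannot be told apart here. At low levels log2(FPKM + 1) understates changes. In plain FPKM, LA over PF means ran from 0.567 (Serpina3k) to 0.864 (Serpinc1) for the 12. For the low members of the other 10 they ran from 0.826 (Serpinb8) to 1.18 (Serpinb9), and Serpina7 had 10.8. Of 11 hepatocyte markers 9 were tested in these libraries, 2 fell (Fga and Fgg) and the median was -0.27. The log2 fold change was below 0 for 8 of the 9, and Cyp2e1 had 0.39 (adjusted p = 0.213, limma). Their summed level was 22042 to 26865 FPKM in LA livers and 28849 to 37048 FPKM in PF livers, with Alb and Tf at 0. Most of this sum was Ttr, with a mean of 16838 of 25343 FPKM in LA livers and 21245 of 31477 FPKM in PF livers. Of 12 macrophage markers 8 were tested and 2 rose (Clec4f and Cd163), with a median of 0.51 and summed levels of 167 to 227 FPKM in LA livers and 125 to 152 FPKM in PF livers, Emr1 and Marco being at 0. Of 6 endothelial markers tested 2 fell and 0 rose, with a median of 0.06. Of 6 fibroblast and stellate markers tested 1 fell and 0 rose, with a median of -0.13. The part of these cells in the serpin result was not tested. When each liver library was centred on its hepatocyte markers, an alternative chosen after seeing the data, Serpina3m (-0.41), Serpina4 (-0.43) and Serpinf2 (-0.32) remained called lower. In that setting Serpina10, Serpina11 and Serpind1 lost their calls, Serpina7 and Serpinb9 were called higher, and the median over all genes moved to 0.22, with 2515 genes called higher and 94 lower in place of 220 and 215.

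**Figure D4:**
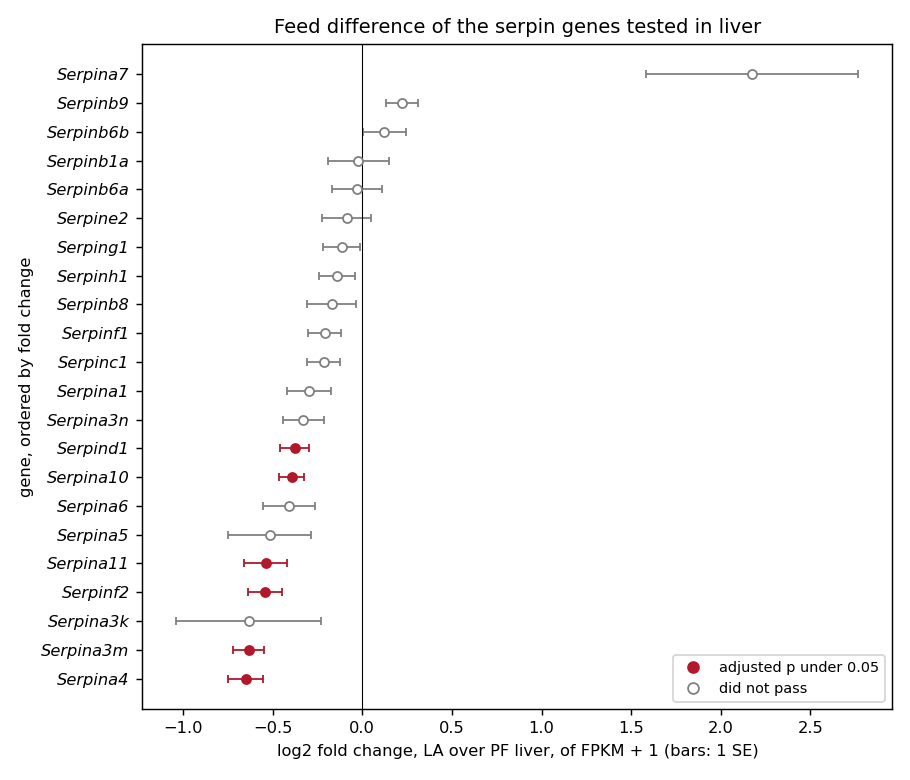
Log2 fold change of LA over PF livers for the 22 serpin genes tested in liver, ordered by size, with bars of 1 standard error; filled red points passed at an adjusted p under 0.05. All 6 filled points lie below 0, between -0.65 and -0.38, and Serpina7 lies at 2.17 with a wide error.

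The proteases and partners of these inhibitors were followed in 9 lists. In liver, 3 of 13 coagulation genes tested fell under LA and 0 rose, with a median log2 fold change of -0.30. They were F12 (-0.47, adjusted p = 0.0137), F10 (-0.43, adjusted p = 0.0196) and F13b (-0.35, adjusted p = 0.0245) by limma. F12 begins the contact pathway and F10 encodes factor X, whose active form Serpina10 inhibits. Of 9 fibrinolysis genes 2 fell and 0 rose, with a median of -0.19. These were Plg, the plasminogen gene (log2 fold change -0.42, SE 0.10, adjusted p = 0.0341), and Vtn, vitronectin, an adhesive protein of plasma and matrix (log2 fold change -0.43, SE 0.10, adjusted p = 0.0407).

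Among 16 other protease inhibitors tested in liver, 4 fell under LA and 0 rose, with a median of -0.29. Mug1 and Pzp, of the alpha-2-macroglobulin family, which cage proteases, changed by -0.70 (adjusted p = 0.0244) and -0.59 (adjusted p = 0.0142) by limma. Itih4 and Ambp, of the inter-alpha-inhibitor family, changed by -0.43 and -0.46. Pzp had 739, 657, 586 and 633 FPKM in LA livers and 964, 1098, 1059 and 835 FPKM in PF livers, again with no overlap. Of 17 acute phase genes 3 fell and 0 rose, with a median of -0.27. They were Apcs (-0.51), Fga (-0.53) and Fgg (-0.50), which encode serum amyloid P and 2 fibrinogen chains. Of 9 hormone binding and transport genes only Agtr1a, the angiotensin II receptor, fell (-0.37, adjusted p = 0.0165), and the list median was -0.26.

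In the remaining lists 0 genes fell in liver. Of 7 leukocyte and lysosomal proteases tested, 1 rose and 0 fell, with a median of 0.17. This was Ctsl1, cathepsin L, with 449, 456, 418 and 518 FPKM in LA livers and 291, 317, 305 and 304 FPKM in PF livers. The groups did not overlap (log2 fold change 0.59, SE 0.08, adjusted p = 0.00361). Of 10 classical and lectin complement genes 0 changed, with a median of 0.15, and the smallest p was that of C1qb (0.48, adjusted p = 0.0588) by limma. Of 6 serpin clearance receptors 0 changed (median -0.12), the smallest p being that of Asgr2, a subunit of the asialoglycoprotein receptor (-0.26, adjusted p = 0.0855). Of 16 procollagen genes 0 changed (median 0.004), with the smallest p for P4hb, protein disulfide isomerase (-0.32, adjusted p = 0.133). At an unadjusted p under 0.05 these 3 lists had 6, 2 and 2 genes in liver. In fat 0 of the 106 list genes tested passed by limma. There 2 had an unadjusted p under 0.05, where 3.92% of all genes reached that level. The list medians in fat ran from -0.59 for acute phase genes to 0.19 for the complement genes.

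In fat no serpin passed the test of LA against PF rats. Of 21 members tested 0 passed by limma, and over all 11501 genes tested 2 did, or 0.0174%. At an unadjusted p under 0.05 there were 2 members, where 3.92% of all genes reached that level. The median log2 fold change was -0.06 over the members and 0.01 over all genes. In clade A 7 of 8 members had a lower LA mean, with a median of -0.54, and in clade B 5 of 6 had a higher one, with a median of 0.03. Of the 12 members called higher in liver in both feeds, 10 had a larger SD of log2 values within groups of fat than of liver libraries. The share over all genes was not taken, so this describes the members and cannot be set apart from the fat libraries in general. The ratio of the SD in fat to that in liver ran from 0.116 for Serpina5, which was near 0 in fat, to 7.76 for Serpinc1. It was 7.35 for Serpina1, 1.35 for Serpinf1 and 0.965 for Serpina3k.

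Serpina3n had the smallest p of the members in fat. Its values, given above, lay between 515 and 787 FPKM under LA and between 324 and 434 FPKM under PF. The feeds did not overlap, a pattern seen for 1.32% of all genes with LA higher, but the difference did not pass (log2 fold change 0.69, SE 0.17, adjusted p = 0.9997, unadjusted p = 0.00282, limma). Serpina12, also given above, was lower in the 4 LA fat libraries than in PF replicates 1, 2 and 4. PF replicate 3, at 27.9 FPKM, lay inside the LA range, and the difference did not pass (log2 fold change -1.31, SE 0.43, adjusted p = 0.9997, unadjusted p = 0.0126, limma). Serpinb8 had 4.53, 4.53, 3.32 and 4.95 FPKM in LA fat and 2.12, 3.82, 3.69 and 3.19 FPKM in PF fat. These ranges overlapped (log2 fold change 0.35, SE 0.16, adjusted p = 0.9997, limma).

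**Figure D5:**
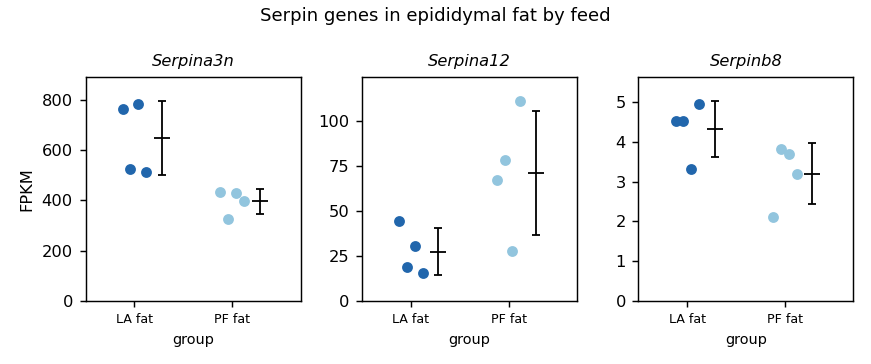
FPKM in each LA and PF fat library for Serpina3n, Serpina12 and Serpinb8, with 1 point per library and the group mean ± SD beside the points; every axis starts at 0. The Serpina3n points do not overlap, the lowest PF point of Serpina12 (27.9 FPKM) lies among the LA points, and no gene shown passed the adjusted test.

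Other cell markers also varied between the fat libraries. Of 12 macrophage markers 9 were tested and 0 passed, with a median of 0.31 and summed levels of 1225 to 2439 FPKM in LA fat and 874 to 1313 FPKM in PF fat, Emr1 and Marco being at 0. Of 7 mesothelial markers 7 were tested and 0 passed, with a median of 0.50 and summed levels of 153 to 455 FPKM in LA fat and 60.5 to 403 FPKM in PF fat. Of 11 hepatocyte markers 10 were tested and 0 passed, with a median of -0.69, beside -0.54 for clade A, and summed levels of 311 to 1084 FPKM in LA fat and 702 to 1246 FPKM in PF fat. The 9 markers of epididymal and male duct epithelium were too low to test in fat. They summed to 0.343 to 1.39 FPKM in LA fat and 0.655 to 12.8 FPKM in PF fat. Lcn5, on that list, had 9.61 FPKM in PF fat replicate 4 and 0 in the other fat libraries. The epithelial marker Epcam had 5.74 FPKM there and 0.198 to 0.653 FPKM in the other fat libraries. The part of these cells in the fat values of the serpins was not tested.

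The difference between the feed effects of liver and fat, taken as liver minus fat over all 16 libraries, passed for 0 of the 24 members and for 46 of 12079 genes, or 0.381%. At an unadjusted p under 0.05 there were 4 members, where 8.2% of all genes reached that level. Serpina3n came nearest, with a negative difference since its log2 fold change was -0.33 in liver and 0.69 in fat (difference -1.02, SE 0.22, adjusted p = 0.057, limma). Its adjusted p ran from 0.0507 to 0.128 over the alternatives tried. Serpina7 (2.19, adjusted p = 0.257), Serpina12 (1.40, adjusted p = 0.323) and Serpinb8 (-0.52, adjusted p = 0.502) followed without passing by limma. Serpina12 passed when PF fat replicate 3 was left out, at an adjusted p of 0.041. Of the partner genes only Vldlr, a receptor that takes up complexes of serpins with proteases, passed (difference 0.65, SE 0.12, adjusted p = 0.0362, limma). It had 0.279, 0.551, 0.609 and 0.554 FPKM in LA livers and 0.0313, 0, 0.0542 and 0.107 FPKM in PF livers, against 15.03 to 16.6 FPKM in LA fat and 15.99 to 19.5 FPKM in PF fat, so the liver side of this difference rests on values below 1 FPKM.

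The 14 symbols left out were 2 of clade A, 9 of clade B, 1 of clade E and 2 of clade I. Of these, 7 were listed at 0 in all 16 libraries, namely Serpina1f, Serpinb11, Serpinb12, Serpinb13, Serpinb3, Serpinb3a and Serpini2. Serpina9, Serpinb2, Serpinb5, Serpinb7, Serpinb9e, Serpine3 and Serpini1, the last of which is neuroserpin of nerve cells, were below 1 FPKM in all 16 libraries. Just inside the limit were Serpinb10, with 5 libraries at 1 FPKM or more, and Serpina7, with 7.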

How the data were processed

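Liver and epididymal fat of 8 ZDF rats gave 4 RNA sequencing libraries per tissue and feed. The TruSeq V2 kit named in the labels' protocols keeps no strand, so antisense genes cannot be told apart. CASAVA 1.8.2, TopHat 0.12.8 and Cuffdiff are listed in the submitters' processing notes. For genome build and annotation, nothing is stated in the sources used. Each deposited file gives FPKM per gene symbol, computed by the authors per the file headers, and holds no counts. Total depth is therefore unknown and count tests were not run. Results of 1 serpin are not reported here, and member counts and sums leave it out. Of the other 38 serpin symbols, 36 matched a current RefSeq symbol (GRCr8) and 2 a synonym. Of the genes on the lists, 210 matched by symbol, 8 by another name and 7 were not matched.

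limma 3.58.1 (R 4.3.3) with a trend was run on log2(FPKM + 1), which understates changes of low genes. A gene entered a fit if 4 or more of its libraries had at least 1 FPKM, and p-values were adjusted by Benjamini-Hochberg over all genes entered. The threshold was an adjusted p of 0.05, with a log2 fold change beyond 1 as a second condition for tissue differences. The feed tests used liver or fat libraries alone. Which liver and fat libraries share a rat is not stated, so the tissue tests took them as independent. Simulated data served to test the fit. Promoters were aligned with Biopython 1.88 and figures drawn with matplotlib 3.10.9.

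Every library value is given for members called by feed, the 2 most abundant members of each clade in each tissue and the 3 smallest p of each feed comparison. Up to 4 called genes of each list are named, or else the 1 with the smallest p. The members, lists and tests were chosen with earlier results of these data known. Results were recomputed with a pseudocount of 0.1, without the filter, after median centring, with the replicate number as a block, without each replicate in turn, and in a single model of 16 libraries. Hepatocyte marker centring was added after seeing the data.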

Additional observations from a re-analysis of the deposited data

Results flagged for a closer look

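In 5 of 88 groups of 4 libraries, 1 library of a serpin gene stood apart from the other 3 by Dixon's test (its gap to the nearest library against the range of the group), which chance gives in about 1 of 20 groups. Serpina3m in LA fat was highest at 4.77 FPKM in replicate 3. Serpinb1a in LA liver was highest at 2.00 FPKM, and in PF fat it was lowest at 16.9 FPKM. Serpinb6b in PF fat was highest at 1.38 FPKM. Serping1 in PF liver was highest at 443 FPKM. No group with such a library held a member that passed a feed test, other than Serpina3m, which was called in liver and not in fat.

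The feed effect on Vldlr differed between liver and fat by 0.65 on the log2 scale (liver minus fat, adjusted p = 0.0362, limma), with liver values below 1 FPKM in every library.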

How the results depend on the processing

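No result changed direction once called. In place of the 6 serpins called lower in LA liver, 1 was called (Serpina7, higher) with all 16 libraries in one model. The count was 4 to 6 with 1 library left out, with Serpina7 called higher without LA liver replicate 1 or 3. It was 5 with no filter, the replicate block (Serpina7 higher and 4 lower) or hepatocyte marker centring (2 higher and 3 lower). Over all genes the 435 calls in liver became 208 to 404 with 1 library left out, lowest without LA liver replicate 2, with 267 without PF liver replicate 1, and 2609 (2515 higher and 94 lower) with hepatocyte marker centring. The 2 calls in fat became 1 with a pseudocount of 0.1, 1 with the replicate block, 7 with all 16 libraries in one model and 0 to 2 with 1 library left out, falling to 1 or 0 without LA fat replicate 1, 2, 3 or 4 or PF fat replicate 2. For the difference of feed effects, the 46 calls became 22 with no filter and 19 to 60 with 1 library left out, lowest without PF fat replicate 1, and the 0 members became 0 to 1, the 1 being Serpina12 without PF fat replicate 3.

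Between tissues, the 19 members called in LA rats became 17 to 18 and the 18 in PF rats 17 with 1 library left out. The members tested then fell from 23 to 21 or 22 in LA rats and from 21 to 20 in PF rats. A member high in the shortened tissue alone cannot reach 1 FPKM in 4 libraries, and no member still tested lost its call. With median centring the counts were 20 and 19. Whether replicate numbers pair the libraries is not stated. In deviations from their group means, same-numbered LA and PF livers correlated at 0.1525, 0.0298, 0.0666 and -0.0035. Same-numbered liver and fat libraries correlated at -0.1368, 0.1111, 0.093 and -0.2248 in LA rats. In PF rats the values were 0.0698, 0.2912, 0.1217 and -0.0328. Same-numbered LA and PF fat libraries correlated at -0.0575, -0.2607, -0.3638 and -0.4262. Libraries of different number ran from -0.2112 to 0.1 between LA and PF livers and from -0.6634 to 0.6307 between LA and PF fat. Between liver and fat they ran from -0.2296 to 0.2817 in LA rats and from -0.2355 to 0.1079 in PF rats. These correlations do not settle whether the numbers pair the libraries. The replicate block leaves the fold changes as they are, and every gene past the fold also passed the adjusted p with and without it, so the tissue counts, 19 and 18 under the block, could not move. FPKM hold no counts, so members below 1 FPKM could not be judged. The cause of these changes was not tested.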
